A study of Mus musculus with 45 samples.

Results

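Clade A serpins of mouse liver were followed in whole-tissue RNA from a feeding study of alcohol-associated liver disease: the alpha-1 antitrypsin genes Serpina1a, Serpina1b, Serpina1c, Serpina1d and Serpina1e, the antichymotrypsin-related genes Serpina3k, Serpina3m and Serpina3n, and Serpina6, which encodes corticosteroid-binding globulin. These 9 genes were taken by name out of 24946 usable gene rows, and all 9 passed the filter of a mean of 0.5 TPM, a length-scaled measure of transcript abundance, that left 11244 genes for testing. They had been chosen by their TPM values in an earlier reading of these same libraries, so the calls given for them are a description and no independent support. The 45 libraries, 21 ethanol-labelled and 24 control-labelled, came from livers of wild-type mice whose age was not given. At peak injury, mice labelled ethanol had received an ethanol-containing liquid diet of the Lieber-DeCarli type for 6 wk and mice labelled control the matching diet without ethanol. At early resolution the ethanol diet had been followed by the control diet for 3 days, and at late resolution by the control diet for 2 wk. Each stage held ethanol-labelled male and female and control-labelled male and female groups, which made 12 groups, 9 of 4 libraries and 3 of 3 libraries. The labels do not say whether animals were pooled, and the p-values reflect only how much libraries of a group differed.

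The sex labels did not match the sex-chromosome transcripts. In all 21 ethanol-labelled libraries Xist, the RNA of the inactive X chromosome, was at 13.7 to 51.8 TPM and the Y-linked Eif2s3y at 0 to 0.04 TPM. In 23 of the 24 control-labelled libraries Xist was at 0 to 0.35 TPM and Eif2s3y at 7.83 to 12.65 TPM. The exception was late control female replicate 1, with 39.5 TPM of Xist and Eif2s3y listed at 0. The sex label and these transcripts disagreed for 22 of 45 libraries, of which 11 were female-labelled and 11 male-labelled. The groups are kept as labelled below, and every difference between ethanol-labelled and control-labelled libraries cannot be told apart from a difference in sex-chromosome transcripts. The 6 hepatocyte markers summed to between 68301 and 193599 TPM in every library, with Alb alone at 49422 to 170591 TPM. Depth is unknown because the table holds TPM.

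Serpins are protease inhibitors that offer a bait loop, the reactive centre loop near the end of the protein, and trap the protease that cuts it. The liver secretes most of the alpha-1 antitrypsin in plasma, whose main target is neutrophil elastase. Mice carry several closely related Serpina1 copies and an expanded Serpina3 cluster where humans have a single gene of each kind. Serpina3n is a classical acute phase gene of mouse liver, and Serpina6 has lost protease inhibition and carries glucocorticoids in blood. In mouse liver Serpina1e, major urinary protein genes, Slco1a1 and Selenbp2 are known as genes higher in males, and corticosteroid-binding globulin is known to be higher in female rodents.

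The copies are alike enough for reads to be shared between them. All 9 members lie on chromosome 12 (GRCm38), with Serpina6 at chr12:103646630-103657212, Serpina1e at chr12:103946931-103958975 and Serpina3n at chr12:104406729-104414329. The annotated span of Serpina1b contains the whole of Serpina1d, and that of Serpina3m contains the whole of Serpina3k. Coding sequences of the 5 Serpina1 copies, each 1242 bases, were 96.3% to 98.5% identical to each other, those of the 3 Serpina3 members 82.6% to 90.8%, and those of different families 53.4% to 58.5%. Of all stretches of 50 coding bases, 74.4% in Serpina1a, 44.8% in Serpina1b, 74.6% in Serpina1c, 51.1% in Serpina1d and 39.0% in Serpina1e occurred unchanged in another member. The same share was 20.4% in Serpina3k, 21.9% in Serpina3m, 1.5% in Serpina3n and 0% in Serpina6. Longer stretches were shared less. With 100 bases the share was 61.2%, 27.9%, 61.7%, 29.8% and 19.1% in Serpina1a to Serpina1e, and 8.2% in Serpina3k and Serpina3m. Values of single Serpina1 copies are therefore uncertain, since how the counting divided shared reads is not given in the sources used here.

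Among the Serpina1 copies 86 of 1242 coding positions varied (6.9%), and 17 of 60 (28.3%) in the window of codons 367 to 386, the most variable window of that length. These windows are shown because they are the stretch in which reads differ most between copies. Capitals mark the positions that vary among the 5 copies (GENCODE annotation of GRCm38, reverse strand, 5′ to 3′).
Serpina1a: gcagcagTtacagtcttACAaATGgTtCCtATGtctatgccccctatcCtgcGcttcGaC
Serpina1b: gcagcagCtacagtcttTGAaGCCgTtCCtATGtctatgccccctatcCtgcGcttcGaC
Serpina1c: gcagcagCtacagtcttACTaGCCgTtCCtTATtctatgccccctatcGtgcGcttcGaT
Serpina1d: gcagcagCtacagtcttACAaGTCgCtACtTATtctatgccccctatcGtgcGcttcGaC
Serpina1e: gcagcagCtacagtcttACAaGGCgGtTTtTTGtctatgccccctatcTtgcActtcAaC
Over the 10 pairs of copies 5 to 11 of the 60 bases differed, fewest between Serpina1c and Serpina1d.

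The 250 bases before the start annotated by RefSeq were compared because the copies differ widely in how they moved. RefSeq (GRCm38.p6) had an entry for 6 of the 9 members, Serpina1a to Serpina1e and Serpina3n. The GENCODE spans of Serpina1e and Serpina1b, on the reverse strand, begin further upstream, at 103958975 and 103830373. The stretches shown for these genes therefore lie inside their GENCODE spans. Serpina1e and Serpina1b, one far below its controls and the other not past the test, are shown with capitals at the bases that differ in their alignment.
Serpina1e (chr12:103956898-103957147, reverse strand): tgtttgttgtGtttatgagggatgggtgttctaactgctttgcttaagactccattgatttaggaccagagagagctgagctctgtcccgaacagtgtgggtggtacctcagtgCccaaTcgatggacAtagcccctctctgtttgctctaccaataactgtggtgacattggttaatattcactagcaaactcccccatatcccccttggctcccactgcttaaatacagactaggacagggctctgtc
Serpina1b (chr12:103738190-103738439, reverse strand): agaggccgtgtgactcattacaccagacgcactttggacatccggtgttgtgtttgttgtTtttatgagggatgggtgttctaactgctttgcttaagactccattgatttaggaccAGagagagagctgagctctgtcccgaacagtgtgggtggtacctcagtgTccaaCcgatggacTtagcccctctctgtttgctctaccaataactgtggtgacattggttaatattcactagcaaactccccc
Over the 200 aligned columns these upstream stretches were 97.0% identical, with 4 substituted and 2 gap columns, and the annotated starts of the 2 genes sit at different places of the shared sequence. The letters GTTAAT, part of the site known for HNF1 factors, occurred on either strand in 5 of the 6 members (all Serpina1 copies), against 6.5% of 27025 promoters. TGACTCA, an AP-1 motif, occurred in 4 of 6 (Serpina1a to Serpina1d), against 4.4% of promoters. In these 4 it began 229 to 240 bases before the annotated start and GTTAAT 16 to 27 bases before it, while GTTAAT began 78 bases before the start of Serpina1e, so the window of Serpina1e does not reach the stretch that holds TGACTCA in the other copies. The STAT motif TTCNNNGAA and the C/EBP motif TTNNGCAAT occurred in 0 of 6, against 7.2% and 2.0%. Pairs of Serpina1 copies were 91.4% to 97.0% identical in these upstream stretches, so matches in several copies are not independent of each other. The counts are therefore no measure of enrichment over all promoters. These motifs were chosen after the values were seen, and a match is a description of letters only.

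The members were among the most abundant transcripts of the tissue. Together they made up 4.41% to 11.5% of a library's TPM (median 7.01%). By mean TPM, which is scaled per transcript length, Serpina3k was 3rd of all genes with 16266 TPM, Serpina1c 6th with 13018 TPM and Serpina1b 11th with 12378 TPM. Serpina1e averaged 8535 TPM, Serpina1d 6959, Serpina1a 6840, Serpina3n 3625, Serpina3m 1762 and Serpina6 908 TPM. The highest library was 1.67 to 2.58 times the lowest for Serpina1a to Serpina1d, 7.16 to 17.6 times for the Serpina3 members and Serpina6, and 1929 times for Serpina1e.

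Serpina1e was far lower in ethanol-labelled livers at every stage. At peak it stood at 925, 34.0, 433 and 937 TPM in ethanol-labelled male libraries, against 27773, 15430, 27254 and 18758 TPM in control-labelled male libraries. Ethanol-labelled female libraries had 111, 16.2, 17.1 and 26.2 TPM, against 10430, 12150, 10132 and 2088 TPM in control-labelled female libraries. The highest ethanol-labelled library was below the lowest control-labelled one, so the groups did not overlap. The difference was -6.94 ± 0.93 on the log2(TPM + 0.5) scale (SE, 8 libraries against 8, limma linear model over all genes, Benjamini-Hochberg adjusted p = 5e-07), a 123-fold lower geometric mean, with all 8 ethanol-labelled libraries below the mean of controls with the same sex label.

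During resolution Serpina1e stayed low in the ethanol-labelled libraries. At early resolution it ranged over 24.9, 154 and 881 TPM (lowest, median and highest of 7), against 10904, 17749 and 29149 TPM in 8 control-labelled libraries. The early difference was -6.76 ± 0.97 (limma, adjusted p = 3.2e-06), again with no overlap. At late resolution the values were 46.9, 159 and 653 TPM in 6 ethanol-labelled libraries, against 21.1, 13843 and 31302 TPM in 8 control-labelled libraries.

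The lowest late control was female replicate 1, the control library with Xist, and the other 7 late controls had 3520 to 31302 TPM. The late difference was -5.07 ± 1.01 (limma, adjusted p = 0.00063), and -6.24 ± 0.73 (adjusted p = 4.7e-08) without that library. A further comparison, added after the data were seen, used only libraries whose transcripts match their sex label: ethanol-labelled female against control-labelled male libraries, plus late control female replicate 1. There the difference was -9.47 at peak (limma, adjusted p = 0.00023), -5.94 at early resolution (adjusted p = 0.031) and -4.32 at late resolution (adjusted p = 0.069). In the order of the 12 group means the 6 control-labelled groups came first, and the peak control female group, with 2088 to 12150 TPM, was the last of them. It did not overlap with the next group, peak ethanol male, at 34.0 to 937 TPM, while every other pair of neighbours overlapped.

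**Figure D1:**
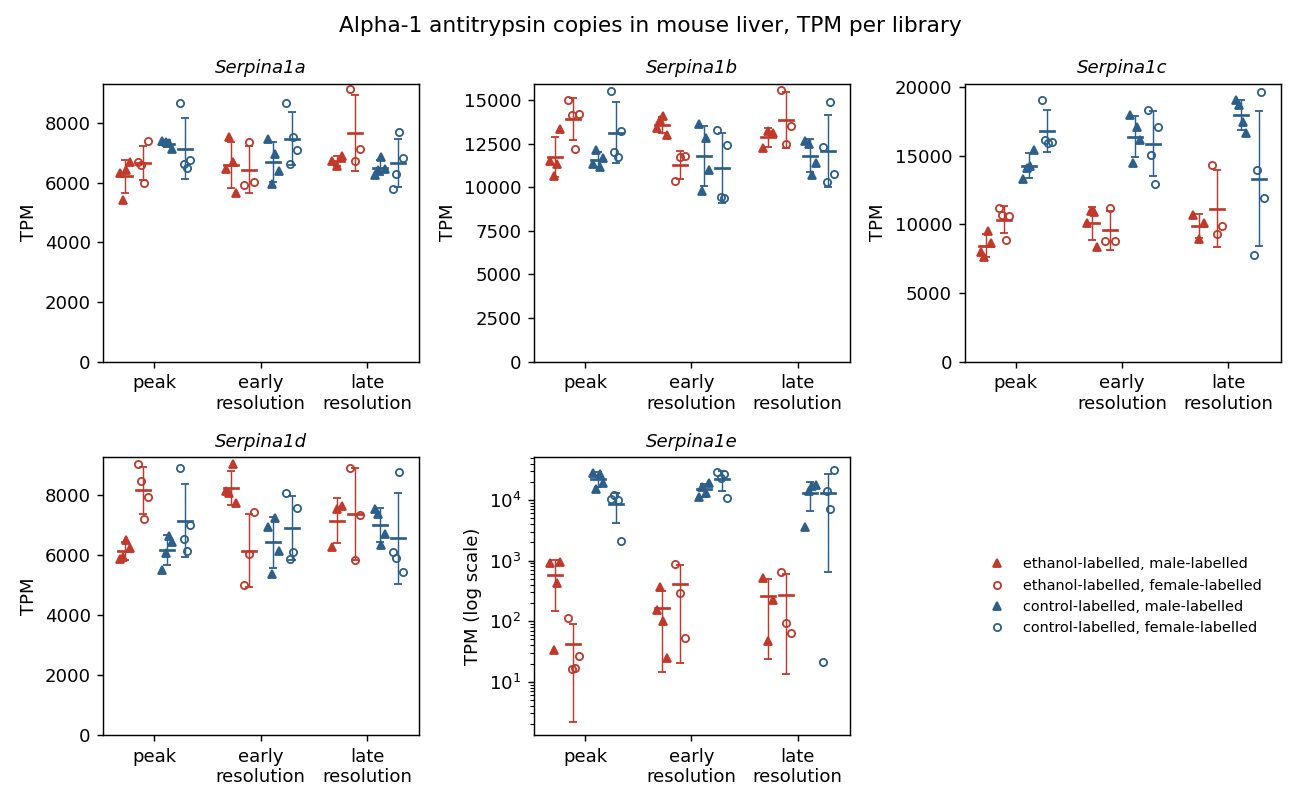
TPM of the 5 alpha-1 antitrypsin genes in each library (points), by stage on the x axis, with the group mean and SD (bars, 3 or 4 libraries), Serpina1e on a log scale. At peak all 8 ethanol-labelled libraries lie at 16.2 to 937 TPM of Serpina1e and all 8 control-labelled libraries at 2088 to 27773 TPM, and 1 late control lies at 21.1 TPM.

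Serpina1c was the other alpha-1 antitrypsin copy that fell, by a much smaller amount. It ranged over 7599, 9191 and 11173 TPM (lowest, median and highest) in ethanol-labelled libraries at peak, against 13269, 15692 and 19090 TPM in control-labelled libraries, without overlap. The peak difference was -0.73 ± 0.12 (SE, limma, adjusted p = 1.5e-05), or 1.66-fold lower, with 8 of 8 ethanol-labelled libraries below the control mean of their sex label. At early resolution 7 ethanol-labelled libraries had 8372, 10107 and 11218 TPM, against 12946, 16594 and 18352 TPM in controls, a difference of -0.71 ± 0.12 (limma, adjusted p = 7.1e-05). These groups did not overlap either.

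At late resolution the Serpina1c groups overlapped, with 8951, 9971 and 14333 TPM in ethanol-labelled libraries, against 7777, 17050 and 19632 TPM in control-labelled libraries. The lowest value, 7777 TPM, was again late control female replicate 1. The late difference was -0.53 ± 0.13 (limma, adjusted p = 0.0045) and -0.65 ± 0.11 without that library (adjusted p = 4.7e-05). Quantile normalization kept the direction but not the call at each stage (-0.39, -0.32 and -0.37 at peak, early and late, adjusted p = 0.053, 0.18 and 0.11), and the call was also lost with libraries matching their sex label only (-0.47, -0.78 and -0.47, adjusted p = 0.1, 0.051 and 0.16).

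Serpina1a, Serpina1b and Serpina1d did not pass the test at any stage with TPM as deposited. Quantile normalization called Serpina1d higher at peak (0.35, limma, adjusted p = 0.044), Serpina1b and Serpina1d higher at early resolution (0.52 and 0.45, adjusted p = 0.018 and 0.026), and Serpina1a and Serpina1b higher at late resolution (0.39 and 0.50, adjusted p = 0.0024 and 0.026). Libraries matching their sex label also gave Serpina1d as higher at peak (0.41, adjusted p = 0.044).

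At peak Serpina1a had 5427, 6520 and 7408 TPM in ethanol-labelled libraries, against 6490, 7235 and 8669 TPM in controls, a difference of -0.16 with a 95% interval of -0.33 to 0 (limma, adjusted p = 0.13). Serpina1b had 10659, 12770 and 15038 TPM in ethanol-labelled libraries at peak, against 11190, 11877 and 15552 TPM in controls (0.05, interval -0.13 to 0.23, adjusted p = 0.72). Serpina1d had 5871, 6855 and 9039 TPM in ethanol-labelled libraries, against 5503, 6494 and 8903 TPM in controls (0.10, interval -0.11 to 0.31, adjusted p = 0.5). The groups overlapped throughout for these 3 genes, and their within-group SD was 0.15 to 0.20 on the log2 scale, against 1.97 for Serpina1e. At peak and early resolution the sign of Serpina1b, and at early resolution that of Serpina1a and Serpina1d, depended on the scaling of the libraries.

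The sum of the 5 copies does not rest on how shared reads were divided among them, though it would still miss shared reads that the counting dropped. The Serpina1 sum was 29664 to 42049 TPM in ethanol-labelled libraries at peak, against 45137 to 66672 TPM in controls. At early resolution it was 30953 to 40846 TPM in ethanol-labelled libraries, against 51958 to 77526 TPM in controls, and the sums did not overlap at either stage. At late resolution it was 34435 to 48661 TPM in ethanol-labelled libraries, against 49051 to 66322 TPM in 7 controls and 32070 TPM in control female replicate 1. Without Serpina1e the peak sums overlapped, at 29630 to 41939 TPM in ethanol-labelled libraries, against 37489 to 52213 TPM in controls. The sum gets no test, since its members were chosen with results known.

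The makeup of the sum changed with the label. Serpina1e was 0.0406% to 2.83% of it in ethanol-labelled libraries at peak, against 4.63% to 42.6% in controls. At early resolution its share was 0.0715% to 2.85% in ethanol-labelled libraries, against 19.8% to 42.6% in controls. At late resolution it was 0.129% to 1.43% in ethanol-labelled libraries, against 7.18% to 47.2% in 7 controls and 0.0657% in control female replicate 1. Serpina1b was the largest share in ethanol-labelled libraries, at 33.1% to 37.2% of the peak sum, against 16.8% to 29.4% in controls.

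**Figure D2:**
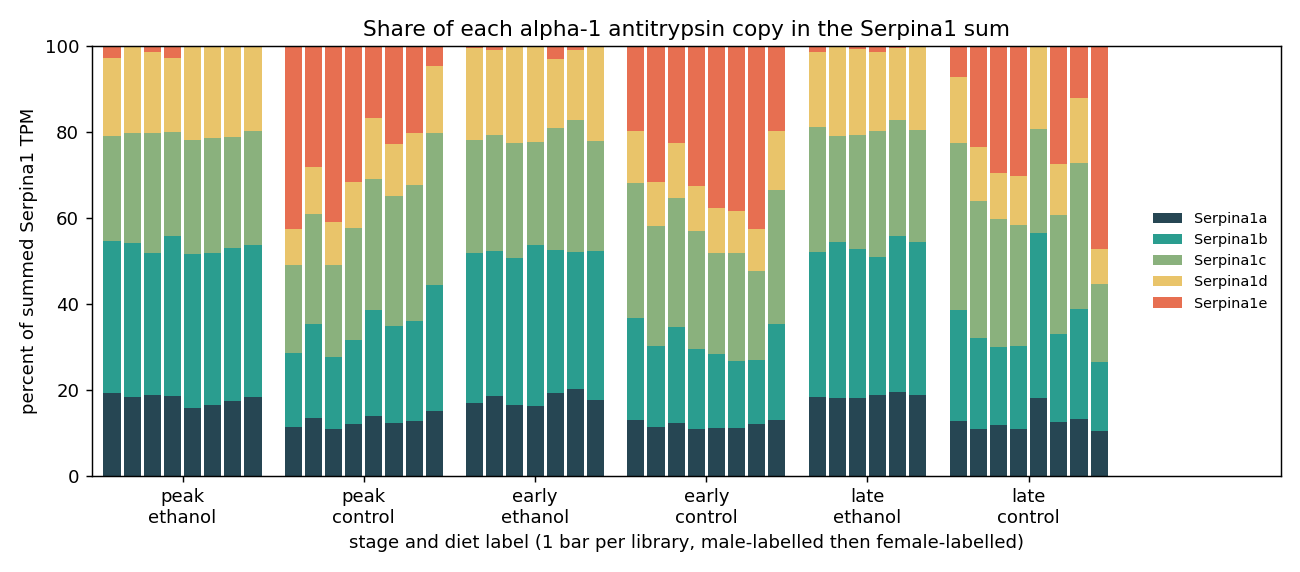
Share of each alpha-1 antitrypsin copy in the summed Serpina1 TPM, 1 bar per library, in percent, by stage and diet label. Serpina1e makes up at most 2.85% in any ethanol-labelled library, and 4.63% to 47.2% in control-labelled libraries except 1 late control with 0.0657%.

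Serpina3k, an inhibitor of tissue kallikrein in rodents and the most abundant Serpina3 gene here, fell at all 3 stages. At peak it stood at 17431, 12810, 18931 and 14026 TPM in ethanol-labelled male libraries, against 23105, 18672, 23404 and 29500 TPM in control-labelled male libraries. Ethanol-labelled female libraries had 2586, 2568, 9364 and 5824 TPM, against 13583, 18006, 17095 and 12162 TPM in control-labelled female libraries. All 8 ethanol-labelled libraries lay below the control mean of their sex label, but the ranges overlapped, also within the male label, where ethanol-labelled replicate 3 stood above control-labelled replicate 2.

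The peak difference of Serpina3k was -1.18 ± 0.26 (SE, limma, adjusted p = 0.00087), or 2.27-fold lower. At early resolution it had 5651, 9342 and 25692 TPM in ethanol-labelled libraries, against 17790, 22501 and 26194 TPM in controls (-1.09 ± 0.27, limma, adjusted p = 0.0051). A single ethanol-labelled library, female replicate 1 with 25692 TPM, reached the control range at that stage. At late resolution ethanol-labelled libraries had 5098, 9966 and 16931 TPM, against 9550, 21750 and 32713 TPM in controls (-1.03 ± 0.28, adjusted p = 0.013). Libraries matching their sex label gave -2.42 at peak (adjusted p = 0.00079), -0.93 at early resolution (adjusted p = 0.27) and -1.02 at late resolution (adjusted p = 0.14). The sum of Serpina3k, Serpina3m and Serpina3n overlapped between labels at every stage. It was 4835 to 35165 TPM in ethanol-labelled libraries at peak, against 13829 to 41614 TPM in controls. The later ranges, in the same order, were 7713 to 39448 against 20995 to 40445 TPM (early) and 7479 to 22794 against 13981 to 48077 TPM (late).

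Serpina3m rose at peak and did not pass the test later. Its peak values were 4239, 4288, 3948 and 2983 TPM in ethanol-labelled male libraries, against 1263, 895, 1424 and 3176 TPM in control-labelled male libraries. Ethanol-labelled female libraries had 1336, 1390, 3391 and 1528 TPM, against 936, 1154, 1035 and 967 TPM in control-labelled female libraries. Every ethanol-labelled female library was thus above every control-labelled female one, while 1 control-labelled male library reached into the ethanol-labelled male range. The peak difference was 1.07 ± 0.27 (limma, adjusted p = 0.0033), or 2.10-fold higher. It was 0.23 (adjusted p = 0.69) with libraries matching their sex label only, where ethanol-labelled female libraries meet control-labelled male ones. The later differences were 0.57 ± 0.28 at early resolution (adjusted p = 0.17) and 0.11 ± 0.29 at late resolution (adjusted p = 0.84).

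Serpina3n varied more between libraries of a group than any member except Serpina1e, with a within-group SD of 1.06 on the log2 scale. At peak it had 11566, 9311, 12286 and 9200 TPM in ethanol-labelled male libraries, against 3528, 1418, 2599 and 8938 TPM in control-labelled male libraries. Ethanol-labelled female libraries had 942, 877, 6201 and 968 TPM, against 884, 1365, 1091 and 700 TPM in control-labelled female libraries. High values were thus found in all 4 ethanol-labelled male libraries, 1 ethanol-labelled female library and 1 control-labelled male library. The peak difference, 1.14 ± 0.51, did not pass the test (limma, adjusted p = 0.088), and with libraries matching their sex label it had the other sign (-1.14, adjusted p = 0.3).

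At the later stages the Serpina3n ranges lay across each other. At early resolution they were 924, 2272 and 10978 TPM in ethanol-labelled libraries, against 773, 1596 and 11477 TPM in controls. At late resolution they were 1007, 2816 and 4068 TPM in ethanol-labelled libraries, against 1115, 2552 and 11464 TPM in controls. The differences were 0.05 ± 0.53 and -0.24 ± 0.55 (limma, adjusted p = 0.97 and 0.81).

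**Figure D3:**
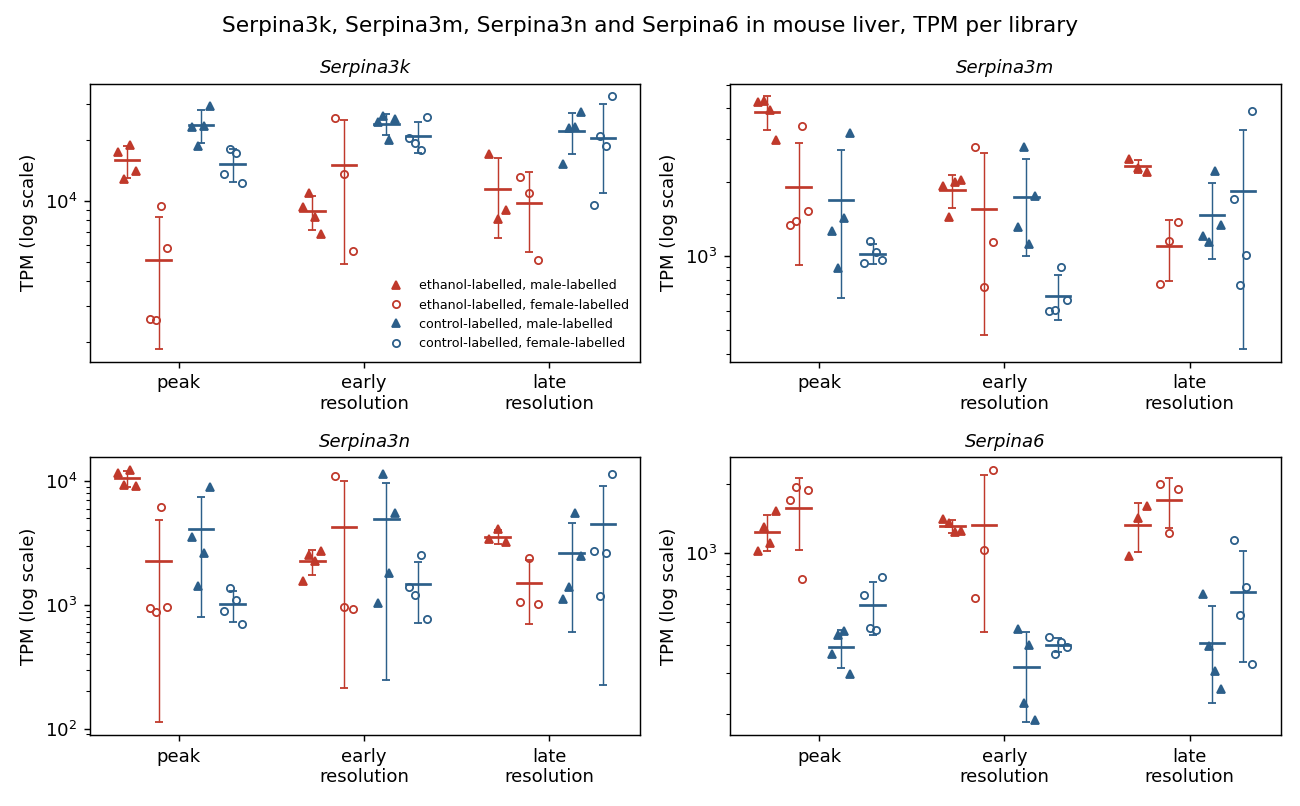
TPM of Serpina3k, Serpina3m, Serpina3n and Serpina6 in each library (points), on log scales, by stage on the x axis, with the group mean and SD (bars, 3 or 4 libraries). Serpina3n at peak lies at 9200 to 12286 TPM in ethanol-labelled male libraries, while Serpina6 is higher in ethanol-labelled groups at all 3 stages.

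Serpina6, the carrier of glucocorticoids, rose at all 3 stages. At peak it stood at 1026, 1307, 1113 and 1533 TPM in ethanol-labelled male libraries, against 365, 442, 457 and 299 TPM in control-labelled male libraries. Ethanol-labelled female libraries had 1713, 1955, 773 and 1887 TPM, against 660, 475, 461 and 787 TPM in control-labelled female libraries. Within each sex label only ethanol-labelled female replicate 3, at 773 TPM, fell inside the control range.

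The peak difference of Serpina6 was 1.52 ± 0.24 (SE, limma, adjusted p = 1.2e-05), or 2.86-fold higher. At early resolution ethanol-labelled libraries had 638, 1247 and 2309 TPM, against 187, 393 and 470 TPM in controls (1.83 ± 0.25, limma, adjusted p = 1.5e-06), without overlap. At late resolution they had 976, 1511 and 2007 TPM, against 255, 466 and 1143 TPM in controls (1.61 ± 0.26, adjusted p = 3.7e-05). The highest late control, at 1143 TPM, was female replicate 1, and the other 7 reached 716 TPM, below every late ethanol-labelled library. Libraries matching their sex label gave 1.95 at peak, 1.95 at early and 1.82 at late resolution (limma, adjusted p = 0.0037, 0.02 and 0.022).

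At peak 5 of the 9 members passed the test between diet labels, Serpina3m and Serpina6 higher and Serpina1c, Serpina1e and Serpina3k lower, while 27.1% of all tested genes were called, 17.3% higher and 9.81% lower. At early resolution 4 of 9 passed, 1 higher and 3 lower, against 16.7% of genes, 14.3% higher and 2.46% lower. At late resolution 4 of 9 passed, 1 higher and 3 lower, against 12.8% of genes, 8.82% higher and 3.98% lower. At both of these stages the called members were Serpina6, higher, and Serpina1c, Serpina1e and Serpina3k, lower. The rule that named the members drew on these same comparisons, so nothing is read from the counts. The median difference of the 9 members was 0.05 at peak, 0.05 at early and 0.10 at late resolution, and that of all tested genes 0.05, 0.13 and 0.05. With median-of-ratios scaling the early shift of 0.13 became -0.03, and the called members stood at -0.90 ± 0.16 (Serpina1c), -6.94 ± 1.02 (Serpina1e), -1.27 ± 0.34 (Serpina3k) and 1.65 ± 0.21 (Serpina6) at that stage. Groups did not overlap for 2 members at peak, 3 at early and 0 at late resolution, against 3.31%, 2.73% and 0.738% of all genes. Without late control female replicate 1 the late groups did not overlap for 2 members, Serpina1e and Serpina6, against 5.05% of all genes.

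**Figure D4:**
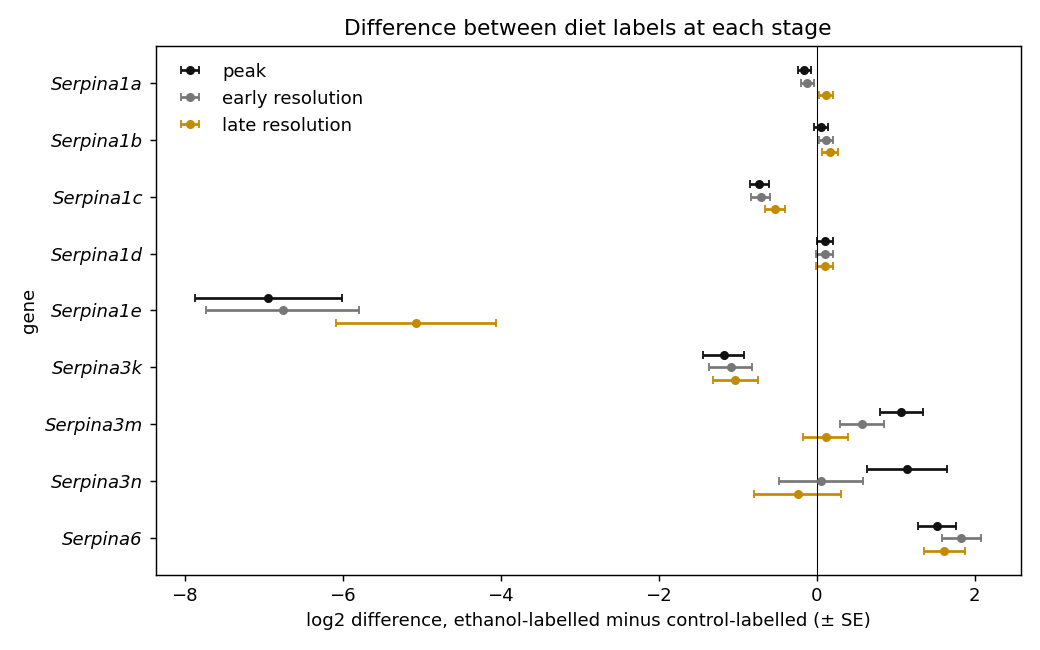
Log2 difference in TPM, ethanol-labelled minus control-labelled, for each member at the 3 stages as deposited, with its SE. Serpina1e lies at -6.94, -6.76 and -5.07, Serpina1c and Serpina3k lie below 0 and Serpina6 above it at every stage, and Serpina3m and Serpina3n lie above 1 at peak and nearer to 0 at late resolution.

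At no stage did a member pass the test for a diet-label difference that differed between male-labelled and female-labelled libraries. The share of all genes called was 0.16% at peak, 0.00889% at early and 0.0445% at late resolution. Since the sex labels did not follow Xist and Eif2s3y, this comparison cannot show whether the sexes differed. At an unadjusted p under 0.05 there were 1 member at peak (Serpina3k), 1 at early (Serpina1d) and 2 at late resolution (Serpina1c and Serpina3m). For Serpina3k at peak the male minus female contrast of the diet-label differences was 1.20 ± 0.52 (limma, adjusted p = 0.34). For Serpina1e at peak it was 1.88 with a 95% interval of -1.90 to 5.65, too wide to exclude large differences.

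For a change between stages in the difference between diet labels, 0 of 9 members passed the test, which does not show that nothing changed. From peak to early resolution 0% of all genes were called by limma, with 1879 genes and 0 members at an unadjusted p under 0.05. From peak to late resolution 3.98% of genes were called, and 2 members, Serpina1a and Serpina3m, were at an unadjusted p under 0.05. The change in the diet-label difference of Serpina3m was -0.96 with a 95% interval of -1.77 to -0.15 (limma, adjusted p = 0.14). That of Serpina1e was 1.88 with an interval of -0.90 to 4.66 (adjusted p = 0.4). These stage comparisons share no libraries with each other except those of peak.

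Many pairs of members varied together or oppositely inside groups, described here as correlations of deviations from the 12 group means over 45 libraries. The strongest and some others are named. Serpina3m and Serpina3n moved together (r = 0.87), as did Serpina1b and Serpina1d (r = 0.86). Every pair among Serpina1a to Serpina1d, copies that can share reads, had an r of 0.57 to 0.86. Serpina1e had an r of 0.48 with Serpina1a, 0.58 with Serpina1c, and -0.05 with Serpina1b and with Serpina1d. Annotated spans overlap for Serpina1b and Serpina1d and also for Serpina3k and Serpina3m, which had an r of 0.39. Serpina6 ran opposite to Serpina3k (r = -0.77) and to Serpina3n (r = -0.75). In peak ethanol female replicate 3, Serpina3n stood at 6201 TPM and Serpina3m at 3391 TPM, and Serpina6 stood at 773 TPM, the lowest of its group. All values of a library share its scaling to a fixed total.

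**Figure D5:**
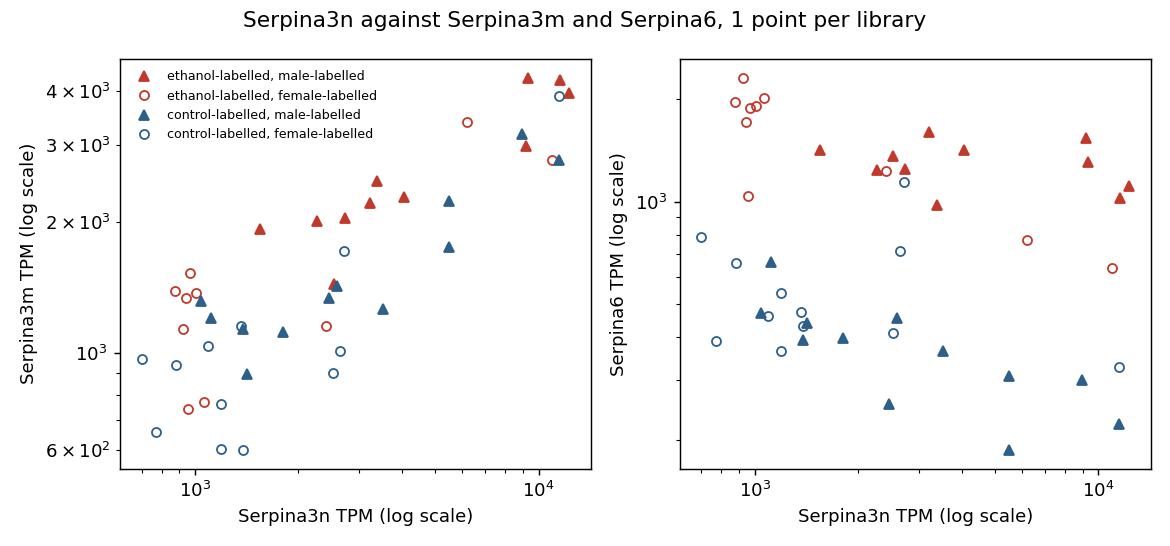
Serpina3n TPM (x axis, log scale) against Serpina3m (left) and Serpina6 (right) TPM, log scales, 1 point per library. Serpina3m runs with Serpina3n (r = 0.87 within groups) and Serpina6 against it (r = -0.75 within groups), with most ethanol-labelled points above most control-labelled ones in the right panel.

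The genes most like each member were ranked by Pearson correlation of log2(TPM + 0.5) over the 45 libraries, among 5481 abundant genes other than clade A serpins. Serpina1e was most like Selenbp2 (r = 0.94), Slco1a1, an organic anion transporter (r = 0.93), and Mup11, a major urinary protein (r = 0.93). For Serpina1c these were Mup3 (0.92), Slco1a1 (0.90) and Phyh (0.89). Serpina3n was most like the fibrinogen chain genes Fgg (0.96) and Fgb (0.95) and the lipocalin gene Lcn2 (0.95). Serpina3m was most like the zinc transporter gene Slc39a14 (0.89), St5 (0.88) and Steap4 (0.88).

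For Serpina6 the closest were Cyp2a22 (0.94), Tcn2, which encodes transcobalamin 2 (0.93), and Ces1c, a carboxylesterase gene (0.93). For Serpina3k they were Egfr (0.83), Rarres1 (0.83) and Eif4ebp3 (0.82). Among these candidates Serpina1b was most like Serpinf1 (0.81), Serpina1d most like Hrg (0.86) and Serpina1a most like Cyp2c23 (0.59), while Serpina1b and Serpina1d had an r of 0.84 with each other. These correlations mix differences between groups with those inside them and carry no test.

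The table held 17 other clade A serpins, of which 11 were tested, and 4 rose and 3 fell at peak, 2 rose and 3 fell at early, and 0 rose and 2 fell at late resolution. Their median difference was 0.55, 0.06 and -0.28 at the 3 stages, where 27.1%, 16.7% and 12.8% of all tested genes were called. Serpina12, whose product vaspin is an adipokine, had 1.34, 3.88 and 13.8 TPM in ethanol-labelled libraries at peak, against 16.3, 28.4 and 61.7 TPM in controls, a difference of -2.71 ± 0.27 (limma, adjusted p = 6.9e-10). It was also lower at early (-2.03) and late resolution (-1.79). The pseudogene Serpina4-ps1 fell by 5.71 on the log2 scale at peak, with 0.303 to 6.49 TPM in ethanol-labelled libraries, against 38.1 to 286 TPM in controls (adjusted p = 6.8e-08). Serpina3g and Serpina3f rose at peak (1.20 and 1.13, adjusted p = 1.2e-05 and 0.0008) and at early resolution (0.97 and 0.81) and not at late resolution (0.38 and 0.31, adjusted p = 0.22 and 0.46). Serpina7, which encodes thyroxine-binding globulin and lies on the X chromosome, rose at peak and did not pass later. Its peak range was 16.2 to 105 TPM in ethanol-labelled libraries, against 14.1 to 34.8 TPM in controls (1.09 ± 0.27, limma, adjusted p = 0.0029). Serpina3h rose at peak (0.58, adjusted p = 0.0039), and Serpina9 fell at peak (-0.97, adjusted p = 0.006) and early resolution (-1.09, adjusted p = 0.0054), both at levels of at most 1.41 TPM at peak. With libraries matching their sex label only, Serpina7 and Serpina3h were not called at peak (0.58 and 0.17, limma, adjusted p = 0.32 and 0.62). Serpina3f and Serpina9 were then not called at early resolution (1.05 and -0.01, adjusted p = 0.092 and 0.99). Serpina12, Serpina4-ps1, Serpina3g, Serpina3f and Serpina9 were still called at peak. The other 4 tested, Serpina10, Serpina11, Serpina3c and Serpina3i, passed at no stage with TPM as deposited. Their peak differences were 0.55, -0.13, 0.15 and 0.98 (adjusted p = 0.15, 0.48, 0.87 and 0.075). Libraries matching their sex label gave Serpina11 as lower at peak (-0.72, limma, adjusted p = 0.014).

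Other genes of the pathway were taken from lists chosen with earlier results known. Among all tested genes 27.1% were called at peak, 16.7% at early and 12.8% at late resolution, and nothing is read from the counts of these lists. Of 13 tested serpins of other clades 6 rose and 1 fell at peak, 3 rose and 2 fell at early, and 3 rose and 1 fell at late resolution. Those called at peak included Serpinb1a, an inhibitor of neutrophil proteases (1.70 ± 0.34, adjusted p = 0.00024), and Serpine2, a thrombin inhibitor (-2.35 ± 0.24, adjusted p = 1.3e-09). Of 11 tested target proteases 2 rose and 2 fell at peak, 3 rose and 1 fell at early, and 3 rose and 0 fell at late resolution. At peak the prothrombin gene F2 (0.31, adjusted p = 0.00076) and the plasminogen gene Plg (0.30, adjusted p = 0.0016) were higher. The elastase gene Cela1 (-1.11 ± 0.17, adjusted p = 5.4e-06) and the clotting factor gene F11 (-0.76, adjusted p = 0.00031) were lower. Of 21 regulators 6 rose and 2 fell at peak, 3 rose and 0 fell at early, and 1 rose and 4 fell at late resolution. Cux2, a repressor known from female mouse liver, had 1.13 to 10.7 TPM in ethanol-labelled libraries at peak, against 0.0188 to 0.192 TPM in controls. Stat3, which carries interleukin 6 signals to acute phase genes, rose at peak (0.87 ± 0.17, adjusted p = 0.00017), as did the oncostatin M receptor gene Osmr (1.20 ± 0.28, adjusted p = 0.0016), and neither passed later.

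Of 16 genes for export and disposal of alpha-1 antitrypsin, 1 rose (Edem1) and 1 fell (Edem2) at peak, 0 rose and 1 fell at early, and 0 and 0 at late resolution. Their median difference was 0.12, -0.20 and -0.30 at the 3 stages, beside 0.05, 0.13 and 0.05 for all tested genes. The share of all tested genes called was 27.1%, 16.7% and 12.8% at these stages. Among 12 genes of glucocorticoid handling 1 rose and 2 fell at peak, 4 rose and 1 fell at early, and 0 rose and 3 fell at late resolution. At peak Sgk1, a kinase gene induced by glucocorticoids, was higher (1.28 ± 0.23, adjusted p = 7.1e-05). Tsc22d3, also a glucocorticoid-induced gene, was lower (-1.32 ± 0.27, adjusted p = 0.00043), as was the steroid reductase gene Srd5a1 (-2.06 ± 0.24, adjusted p = 3.6e-08).

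Markers of some other liver cells also differed between diet labels. The counts of these lists stand beside 27.1% of all tested genes called at peak, 16.7% at early and 12.8% at late resolution. At peak all 5 endothelial markers were called higher, with summed levels of 38.4 to 90.1 TPM in ethanol-labelled libraries, against 18.1 to 52.8 TPM in controls. Stellate markers, 3 of 5 called higher, summed to 65.4 to 127 TPM in 7 ethanol-labelled libraries, against 29.1 to 97.3 TPM in controls. In the remaining one, peak ethanol female replicate 1, the sum was 235 TPM, of which Des alone was 109 TPM, against 0.92 to 1.73 TPM of Des in the other 7 ethanol-labelled libraries. Without that library 3 of 5 were called higher, Des included (0.56, limma, adjusted p = 0.0029). Hepatocyte markers, 1 of 6 called higher, summed to 133418 to 175007 TPM in ethanol-labelled libraries, against 110703 to 143485 TPM in controls. Most of this sum was Alb, at 112218 to 154168 against 86946 to 123513 TPM, which was not called (0.28, limma, adjusted p = 0.11). Cholangiocyte markers were called higher for 2 of 3 tested, neutrophil markers lower for 1 of 4, and macrophage markers and T and B cell markers for 0 of 6 and 0 of 4.

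At early resolution macrophage markers were called higher for 5 of 6, T and B cell markers for 2 of 4, stellate markers for 2 of 5, endothelial markers for 1 of 5 and hepatocyte markers for 1 of 6, and neutrophil and cholangiocyte markers for 0. At late resolution all 4 tested T and B cell markers were called higher, with 6.72 to 39.5 TPM summed over the list in ethanol-labelled libraries, against 1.47 to 6.69 TPM in controls. The highest values lay far above the medians in ethanol-labelled libraries, 17.1 against 2.78 TPM for Cd79a and 13.4 against 2.58 TPM for Cd79b. Macrophage markers were then called higher for 3 of 6 (232 to 358 TPM in ethanol-labelled libraries, against 105 to 397 TPM in controls). Hepatocyte markers were called higher for 2 and lower for 1 of 6, and the endothelial, stellate, neutrophil and cholangiocyte lists for 0. No marker was at 0 in every library. The part of these markers in the members' differences was not tested, and in whole tissue fewer cells of a type and less RNA per cell cannot be told apart.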

How the data were processed

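Stranded mRNA libraries were made from liver RNA, per the labels' protocols. The deposited table gives TPM per gene, and the genome build named in the submitters' processing notes is mm10. For the aligner, the counter and the treatment of shared reads, nothing is given in the sources used here. Although the table's name speaks of normalized counts, each library totals 999999 to 1000001, so the values were taken as TPM. A check of length scaling, in which the smallest value above 0 of a gene was correlated with its length, was tried in several versions. Over genes with 1 annotated transcript Spearman's rho was -0.57 to -0.66 in 9 filter combinations, while with exon union lengths of 4396 genes it was -0.12. Of 24972 rows, 26 named by a date (0.044% of TPM) were left out.

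Values were tested as log2(TPM + 0.5) over genes averaging 0.5 TPM or more, with limma 3.58.1 in R 4.3.3 (variance trend, 12 group means, Benjamini-Hochberg over 11244 genes, calls at adjusted p under 0.05). Fold changes on this scale understate changes of low genes. On simulated data for the peak comparison (11244 genes) 91 of 100 genes changed by 1 log2 unit were recovered, and 98 of 100 changed by 2. The members and lists, and the motifs, windows and family shares shown, were chosen with earlier results of these data known. All members are named, as are other clade A serpins past the filter, up to 4 genes a list and up to 3 most similar genes a member. Coding identities used the shortest complete coding sequence of at least 1000 bases in GENCODE M21, a rule set after a longer Serpina1a form had failed to align. Alternatives covered pseudocount, filter, scaling, variance model, replicate block and leaving out libraries.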

Additional observations from a re-analysis of the deposited data

Results flagged for a closer look

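Of 81 sets of 4 libraries, 8 held a library far from the other 3 by Dixon's gap-to-range ratio of log2(TPM + 0.5), above the critical value for that size, and chance alone gives about 1 in 20. Peak ethanol female replicate 3 stood apart in 3 members: it was highest for Serpina3n with 6201 TPM (ratio 0.95, others 877 to 968 TPM), highest for Serpina3m with 3391 TPM (0.856, others 1336 to 1528 TPM) and lowest for Serpina6 with 773 TPM (0.858, others 1713 to 1955 TPM). Early ethanol male replicate 2 was lowest for Serpina3m with 1438 TPM (0.8293, others 1923 to 2042 TPM). Peak control female replicate 1 was highest for Serpina1c with 19090 TPM (0.921, others 15935 to 16164 TPM) and for Serpina1a with 8669 TPM (0.847, others 6490 to 6784 TPM). Peak control female replicate 4 was lowest for Serpina1e with 2088 TPM (0.897, others 10132 to 12150 TPM). Late control male replicate 1 was lowest for Serpina1e with 3520 TPM (0.842, others 13846 to 17906 TPM). Late control female replicate 1, at 21.1 TPM of Serpina1e, did not pass the critical value in its group.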

How the results depend on the processing

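The calls of Serpina1e and Serpina6 at peak and early resolution, and of Serpina6 at late resolution, held under every alternative run. The call of Serpina1e at late resolution was lost only with libraries matching their sex label (-4.32, adjusted p = 0.069). That choice, added after the data were seen, gave the other sign for Serpina3n at peak (-1.14), for Serpina1b (-0.06), Serpina1d (-0.07), Serpina3m (-0.30) and Serpina3n (-0.63) at early resolution, and for Serpina3m at late resolution (-0.46). It left 2 members called at early and 1 at late resolution, 2 and 1 other clade A serpins, and 715 genes at early resolution, with 64 genes for the change from peak to early and 1930 from peak to late. Median-of-ratios scaling gave the other sign for Serpina1b at peak (-0.04) and early resolution (-0.06) and for Serpina1d (-0.08) and Serpina3n (-0.13) at early resolution, and quantile normalization for Serpina1a at early resolution (0.13). With these 2 scalings genes called were 2374 and 2423 at late resolution, 48 and 37 for the difference between sex labels at peak, 0 and 0 at early and 8 and 13 at late resolution, 20 and 13 for the change from peak to early, and 1348 and 1290 from peak to late. Quantile normalization called 1 member for that last change (Serpina1a) and 3 higher and 2 lower at each stage. At peak higher genes were 1946 and lower 1103 as deposited, 1691 and 2325 with median-of-ratios scaling, and 1803 and 2124 with quantile normalization. At early resolution the splits were 1603 and 277, 857 and 1026, and 974 and 956, and at late resolution 992 and 448, 963 and 1411, and 1178 and 1245.

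With the filter at 5 TPM, 6194 genes were tested, and 1617, 1075 and 914 genes were called at the 3 stages, with 4 other clade A serpins at peak and 3 at early resolution, 10 and 0 genes for the difference between sex labels at peak and early, and 279 for peak to late. Without a filter these last were 290, with 0 and 9 genes between sex labels at early and late resolution, and a pseudocount of 0.1 gave 0 at early. Each stage fitted alone gave 727 genes and 2 members at late resolution, 35, 2 and 0 genes between sex labels, and Serpina3n called at peak (adjusted p = 0.044). With the replicate block, 580 genes and 2 members were called at late resolution (Serpina1c adjusted p = 0.054, Serpina3k 0.13), 10, 0 and 0 genes between sex labels and 0 for peak to late, with Serpina3n at -0.08 at early and 0.11 at late resolution. Over 21 pairs of same-numbered libraries r was -0.371 to 0.25 (median -0.053), with 6 correlating best with their own number, so the numbers were not taken as pairs. Not all groups were alike in this. In peak female all 4 pairs were at 0.109 to 0.222, each best with its own number. The 4 early male pairs were at -0.05 to 0.25, with 3 over 0.1 and 2 best with their own number. The 4 peak male pairs were at -0.212 to -0.067. The cause of these shifts was not tested, beyond fewer genes under a stricter filter and fewer libraries.

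Leaving out 1 library at a time gave 5 to 6 members at peak, 4 at early and 4 at late resolution, 0 for the differences between sex labels and stages, and 7 to 8, 4 to 5 and 2 other clade A serpins. Genes called were 2572 to 3344, 1123 to 3016 and 966 to 2098 at the 3 stages, 4 to 134, 0 to 5 and 0 to 10 between sex labels, 0 to 1072 for peak to early and 95 to 1064 for peak to late. Signs turned for Serpina3m at late resolution (-0.06 to 0.34) and Serpina3n at early (-0.54 to 0.35) and late resolution (-0.47 to 0.08), and Serpina3n at peak ranged over 0.80 to 1.38 (adjusted p = 0.04 to 0.24). Depth is unknown, so counting error at low values could not be given.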
